A study of Homo sapiens with 12 samples.

Results

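A set of 10 genes of the nuclear lamina and the HMGB family was followed: the lamins LMNA, LMNB1 and LMNB2, the lamina partners LBR, TMPO, EMD and BANF1, and the chromatin proteins HMGB1, HMGB2 and HMGB3. They were chosen by name, because lower transcript levels of LMNB1 and of HMGB genes are used as marks of senescence, and were found through their Ensembl identifiers. All 10 of 10 were in the deposited table of 61541 genes, and all 10 passed the filter on low counts that left 16768 genes to be tested. In cells with Cas9 knockout of TYMS, 6 of the 10 were lower than in control cells, where 28.6% of all genes tested were called lower and 56.6% in either direction. The control libraries held transcripts of a locus that the labelled cell line is known to lack. A difference between the cells other than the guide therefore cannot be told apart from the knockout. In co-cultured against monoculture knockout cells 3 of the 10 were lower (LMNB1, LBR and TMPO), where 5.40% of all genes were. That count ranged from 1 to 5 when 1 library was left out. The LMNB1 call held under 20 of 20 alternatives tested against no change, that of LBR under 14 and that of TMPO under 7. Against a required fold of at least 1.5, 0 of the 10 were called there. None of the 10 was called higher in any of the 5 comparisons, though a correction for GC content, tried as an alternative, called a few higher.

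The lamina is a mesh of intermediate filaments beneath the inner nuclear membrane. B-type lamins (LMNB1, LMNB2) are made throughout the body and stay farnesylated and membrane-bound, whereas LMNA gives lamins A and C. LBR and the LEM-domain proteins TMPO (LAP2) and EMD (emerin) sit at or near that membrane and tie chromatin to it, and BANF1 (BAF) links LEM-domain proteins to DNA. HMGB proteins bend DNA and loosen chromatin. In senescence, a lasting stop of cell division, LMNB1 transcripts are known to fall, HMGB2 transcripts fall as cells leave the cycle, and HMGB1 protein leaves the nucleus and is secreted.

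RNA was sequenced from A549, an established human lung adenocarcinoma line, 14 days after transduction, in 4 groups of 3 libraries. Cells with the non-targeting guide gNTC1 (genotype NTC KO, here the control) and cells with genotype TYMS KO (TS-KO, here the knockout) were each grown in monoculture ("lone" in the plots) or in co-culture, all without drug treatment and in DMEM with serum. TYMS encodes thymidylate synthase, which makes the thymidylate used for DNA synthesis. The series text gives parental A549 as the partner of the co-cultured knockout and says that proliferation was restored there. The labels do not give the partner of the control, whether partners were removed before RNA was taken, or whether the knockout cells were a pool or a clone. They also do not say that replicates were separate cultures, so p-values measure the spread between libraries, which may be technical. In bulk RNA, fewer cells with a transcript and less of it per cell cannot be told apart, and RNA of partner cells in the co-cultures is not accounted for.

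Libraries held 14921371 to 35723762 counts, and the first principal component of the 12 libraries held 75.5% of the variance. TYMS itself stood at means of 95.4 CPM (counts per 1e6 counts, TMM-scaled) in monoculture control, 93.4 CPM in co-cultured control, 20.9 CPM in monoculture knockout and 11.05 CPM in co-cultured knockout; it shares 967 exonic bases with ENOSF1. Markers of other cell types were low: 7 fibroblast markers summed to 12.2 to 24.6 CPM over the 12 libraries, 5 blood markers to 0.797 to 6.23 CPM and 4 endothelial markers to 0.0847 to 2.73 CPM. The control libraries went against the cell line label. A549 is known to lack the locus of CDKN2A, CDKN2B and MTAP, yet these 3 genes summed to 122 to 166 CPM in the 6 control libraries, against 0.302 to 0.746 CPM in the 6 knockout libraries. EPCAM, an epithelial adhesion gene, stood at means of 104 and 101.5 CPM in the 2 control groups (monoculture, then co-culture) and of 0.620 and 0.322 CPM in the 2 knockout groups. Of the 6 epithelial markers KRT7 alone was higher in knockout (1910 and 1816 against 5952 and 6063 CPM). Together the 6 summed to 10890 to 17780 CPM in control libraries and 8358 to 13700 CPM in knockout libraries. The 10 genes listed as A549 markers summed to 6864 to 8608 CPM in control libraries and 16110 to 17330 CPM in knockout libraries. Since transcripts of the CDKN2A locus were present in every library labelled control, no comparison with control could be made without such libraries. A difference between the cells other than the guide cannot be told apart from the knockout. The comparison of co-cultured with monoculture knockout sets no control library against another group. Its filter, scaling and estimate of the spread still drew on the control libraries. With only the compared groups fitted, 664 genes were called there in place of 1907.

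**Figure D1:**
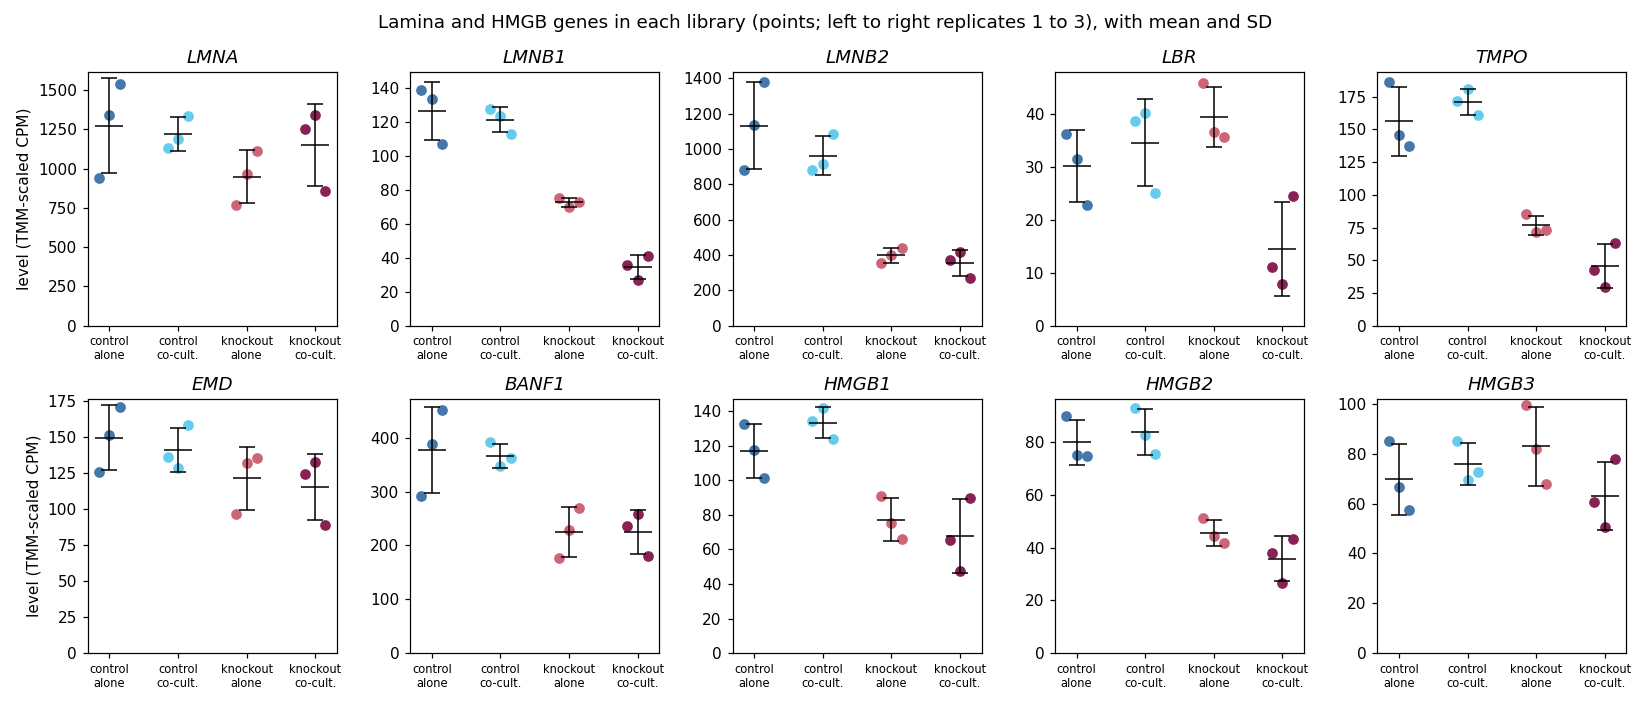
Level of each of the 10 genes (vertical axes, TMM-scaled CPM, starting at 0) in the 12 libraries, with the mean and SD of each group of 3. LMNB1, LMNB2, TMPO, BANF1, HMGB1 and HMGB2 lie lower in all 6 knockout libraries than in all 6 control libraries, and LBR is lowest in replicates 1 and 2 of the co-cultured knockout. The share of all genes that lie apart in this way was not counted.

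RefSeq promoter sequence (GRCh38.p14) was matched by symbol for 9 of the 10 genes, at 16 annotated starts; HMGB2 had no entry. The 3 windows are shown because they stand for the contrast that follows, a lamin that fell (LMNB1), a lamin that was not called (LMNA) and an HMGB gene that fell (HMGB1). LMNB1 is the window chr5:126776373-126776622 (plus strand), LMNA is chr1:156082323-156082572 (plus strand), and HMGB1 is chr13:30465966-30466186 (minus strand), shortened to 221 bases where annotated exons begin. Capitals mark matches on the printed strand to CCAAT, the box bound by NF-Y, or to an E2F core motif (TTGGCGC in its first form, TTCCCGC in another, TTCGCGC in a further form, or else TTGCCGC), both searched on either strand together with TTTGAA, a cell-cycle element of the CHR type.
LMNB1: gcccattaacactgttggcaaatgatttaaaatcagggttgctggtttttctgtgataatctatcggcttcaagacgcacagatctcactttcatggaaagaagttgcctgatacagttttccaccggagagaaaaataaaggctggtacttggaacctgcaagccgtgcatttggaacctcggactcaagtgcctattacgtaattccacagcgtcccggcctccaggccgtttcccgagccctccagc
LMNA: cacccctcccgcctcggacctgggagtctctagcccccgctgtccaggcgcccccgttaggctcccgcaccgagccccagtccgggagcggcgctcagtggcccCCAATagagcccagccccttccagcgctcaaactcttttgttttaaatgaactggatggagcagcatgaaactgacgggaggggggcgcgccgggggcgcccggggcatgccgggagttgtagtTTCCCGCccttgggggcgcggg
HMGB1: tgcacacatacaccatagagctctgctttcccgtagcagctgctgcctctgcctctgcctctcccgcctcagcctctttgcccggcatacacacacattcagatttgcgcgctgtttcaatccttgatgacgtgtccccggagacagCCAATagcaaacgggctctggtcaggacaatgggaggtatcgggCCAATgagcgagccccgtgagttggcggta
The printed LMNB1 window held none of the motifs and had a GC content of 48.4%. The window before another annotated LMNB1 start had a GC content of 75.6% and held CCAAT, so the contrast of the printed windows depends on the start chosen. The LMNA window held CCAAT at 146 to 142 bases before the start and TTCCCGC at 22 to 16 bases before it, with a GC content of 68.8%. HMGB1 held CCAAT at 103 to 99 and at 59 to 55 bases before its start. Over the 250 bases before any annotated start, 6 of the 9 genes held CCAAT (LMNB1 among them, at 138 to 134 bases before another of its annotated starts, on the minus strand), 3 held TTTGAA and 2 held an E2F core, while 32.0%, 13.3% and 10.9% of all 35116 promoters in the table, counted per start, did. A gene with several starts had several windows in which to match, so counts per gene and shares per start are not alike. Annotated exons filled all 250 bases of that LMNB1 window and of the BANF1 window with its E2F core, and parts of several others. No motif of the set overlaps another in its letters in these windows. A match is a description of the letters only.

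LMNB1, which encodes lamin B1 (ENSG00000113368; GRCh38 chromosome 5, 126776623 to 126837020, plus strand, GENCODE 29), fell in the knockout and fell again in its co-culture. It stood at 139, 133 and 107 CPM in replicates 1 to 3 of the monoculture control and at 127, 124 and 113 CPM in the co-cultured control. The monoculture knockout libraries held 75.3, 69.9 and 72.8 CPM, and the co-cultured knockout libraries 35.96, 26.9 and 41.2 CPM. No library of either knockout group reached a control library, and the co-cultured knockout did not overlap the monoculture knockout. LMNB1 was 1.74-fold lower in knockout than in control alone (log2 change -0.80, SE 0.16, edgeR adjusted p = 0.000961) and 3.5-fold lower in co-culture (-1.81, SE 0.16, adjusted p = 1.45e-06). Between monoculture and co-cultured knockout the difference was 2.1-fold (-1.07, 95% interval -1.42 to -0.72, edgeR adjusted p = 0.00152). Each of these 3 calls held under 20 of 20 alternatives tested against no change. Against a required fold of at least 1.5, none of the 10 genes was called from monoculture to co-cultured knockout. The co-culture difference in the knockout minus that in the control, the interaction, was -1.01 (95% interval -1.5 to -0.52, edgeR adjusted p = 0.0406), and LMNB1 was the 1 gene of the 10 called there, where 1.80% of all genes were. That call was lost with library size scaling only (adjusted p = 0.115), with the replicate block (0.0829) and on leaving out any 1 library other than replicate 1 of the monoculture control or replicate 3 of the co-cultured knockout (0.054 to 0.123).

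LMNB2, lamin B2 (ENSG00000176619; chromosome 19, 2427638 to 2456996, minus strand), fell in the knockout and was not called further in its co-culture. Its levels were 883, 1136 and 1380 CPM in the monoculture control, 883, 916 and 1087 in the co-cultured control, 353, 403 and 441 in the monoculture knockout, with 374, 416 and 272 in the co-cultured knockout. The highest knockout library was thus below the lowest control library. The log2 fold change was -1.51 (SE 0.20, edgeR adjusted p = 4.05e-05) alone and -1.44 (SE 0.20, edgeR adjusted p = 6.29e-05) in co-culture, 2.84-fold lower in the monoculture knockout. Co-cultured and monoculture knockout differed by -0.17 (95% interval -0.60 to 0.25, edgeR adjusted p = 0.582). With offsets for GC content the monoculture difference was smaller, at -0.68, and co-cultured against monoculture knockout became -0.52 (edgeR adjusted p = 0.000193). LMNB2 shares 257 exonic bases with TIMM13 on the same strand, whose means were 174.5, 157.6, 81.7 and 83.6 CPM in the monoculture control, co-cultured control, monoculture knockout and co-cultured knockout. Reads in shared bases cannot be assigned to either gene.

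LMNA, the A-type lamin gene (ENSG00000160789; chromosome 1, 156082573 to 156140089, plus strand), was not called in any comparison. It held 943, 1339 and 1536 CPM in the monoculture control, 1128, 1189 and 1337 in the co-cultured control, 771, 968 and 1109 in the monoculture knockout, with 1249.6, 1342 and 856 in the co-cultured knockout. The highest monoculture knockout library (1109 CPM) lay just below the lowest co-cultured control library (1128 CPM), and every other pair of groups overlapped. The log2 fold change of the monoculture knockout was -0.42 (95% interval -0.89 to 0.05, edgeR adjusted p = 0.112), and that of co-cultured against monoculture knockout was 0.28 (95% interval -0.19 to 0.75, adjusted p = 0.412). The direction in the monoculture knockout rested on the treatment of GC content: with GC offsets it was 0.41 (edgeR adjusted p = 0.00069), whereas without replicate 1 of the monoculture control it was called lower (-0.61, adjusted p = 0.0279).

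The ratio of LMNA to LMNB1 within a library does not depend on library scaling. It was 6.79 to 14.4 in the monoculture control, 8.87 to 11.8 in the co-cultured control, 10.2 to 15.2 in the monoculture knockout and 20.8 to 49.9 in the co-cultured knockout. The co-cultured knockout was the group that stood apart, with no overlap with the other libraries. On the log2 scale the means were 3.31 ± 0.54, 3.33 ± 0.21, 3.69 ± 0.30 and 5.05 ± 0.64 (SD, n = 3 each). Over both cultures, knockout exceeded control by 1.05 (exact permutation test within culture, two-sided, p = 0.02, smallest possible 0.005). Within cultures the differences were 0.38 alone (exact p = 0.4) and 1.72 in co-culture (exact p = 0.1), where 0.1 is the smallest p that 3 against 3 libraries allow. The LMNA transcript has 61.5% GC and the LMNB1 transcript 51.1%, and the ratios above are of counts with no GC correction. With GC offsets the log2 fold changes of the 2 genes were 0.41 (LMNA) and -0.84 (LMNB1) alone, further apart than without them, and 0.19 and -1.97 in co-culture.

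**Figure D2:**
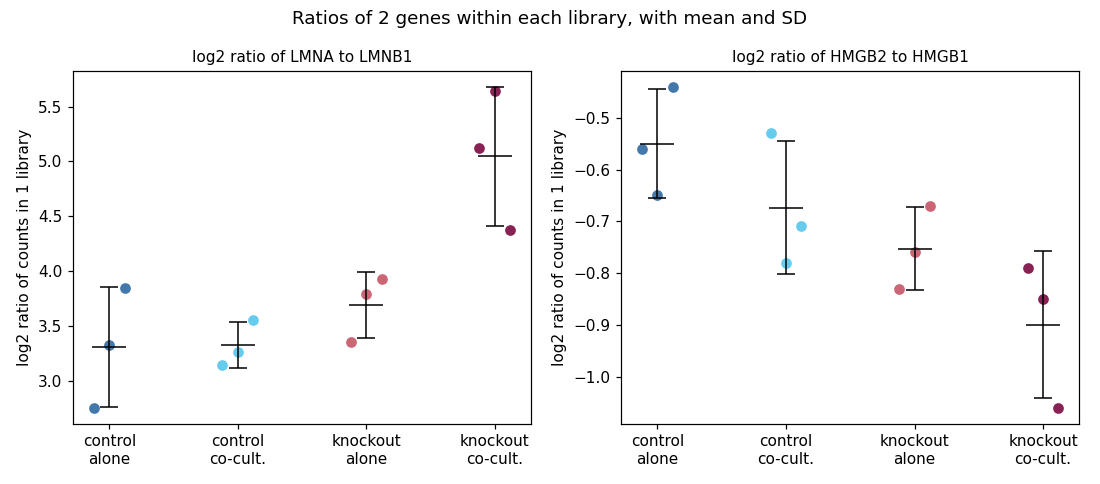
Log2 ratio of counts of LMNA to LMNB1 and of HMGB2 to HMGB1 in each library (points), by group, with mean and SD. LMNA to LMNB1 averages 5.05 in the co-cultured knockout and 3.31 to 3.69 in the other groups, and HMGB2 to HMGB1 averages -0.55 in the monoculture control and -0.90 in the co-cultured knockout.

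Among the lamina partners, TMPO and BANF1 fell in both knockout groups, LBR was called lower in the co-cultured knockout, and EMD was not called. TMPO (ENSG00000120802; chromosome 12, 98515512 to 98550379, plus strand), whose LAP2 proteins bind lamins and BAF, stood at 186, 145 and 137 CPM in the monoculture control and 172, 181 and 161 CPM in the co-cultured control. Levels were 85.3, 71.8 and 73.2 CPM in the monoculture knockout and 42.9, 30.0 and 63.6 CPM in the co-cultured knockout, so that neither knockout group overlapped a control group, nor each other. TMPO was 2.03-fold lower in the monoculture knockout (log2 change -1.02, SE 0.22, edgeR adjusted p = 0.00173) and 3.76-fold lower in co-culture (-1.91, SE 0.23, adjusted p = 1.69e-05). The further fall in co-culture was 1.69-fold (-0.76, SE 0.22, edgeR adjusted p = 0.0461). This last call held under 7 of 20 alternatives. It was lost on leaving out any 1 library other than replicate 1 of the monoculture control or replicate 3 of the co-cultured knockout (adjusted p up to 0.175), and GC offsets gave -0.37 (adjusted p = 0.00875). GC offsets also moved the monoculture difference, to -1.61. TMPO shares 713 exonic bases with the antisense gene TMPO-AS1, which averaged 9.97, 7.29, 4.45 and 3.999 CPM in the 4 groups. The strand setting of the counting is not given in the sources used here, so reads of the 2 cannot be told apart.

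LBR (ENSG00000143815; chromosome 1, 225401502 to 225428925, minus strand), a membrane protein that binds B-type lamins and heterochromatin and also has sterol reductase activity, held 36.3, 31.6 and 22.8 CPM in the monoculture control and 38.7, 40.2 and 25.2 CPM in the co-cultured control. It held 46.0, 36.6 and 35.8 CPM in the monoculture knockout and 11.1, 7.87 and 24.6 CPM in the co-cultured knockout. Replicate 3 of the co-cultured knockout lay between the lowest libraries of the control groups, while its other replicates lay far below. LBR fell 2.72-fold from monoculture to co-cultured knockout (log2 change -1.44, SE 0.35, edgeR adjusted p = 0.022) and was lower than in the co-cultured control (-1.26, SE 0.35, adjusted p = 0.00919). In the monoculture knockout it was not called (0.39, 95% interval -0.36 to 1.13, edgeR adjusted p = 0.351), and the sign turned with GC offsets (-0.24, adjusted p = 0.161). The fall in co-culture was lost with library size scaling only (edgeR adjusted p = 0.0634) and when only the compared groups were fitted (0.0973). It was also lost without replicate 1 or 2 of the monoculture knockout (0.0874, 0.0582) or replicate 1 or 2 of the co-cultured knockout (0.117, 0.0631).

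BANF1 (ENSG00000175334; chromosome 11, 66002079 to 66004149, plus strand) was lower in both knockout groups by a like amount. Its libraries held 292, 389 and 451 CPM (monoculture control), 391, 347 and 362 CPM (co-cultured control), 176, 228 and 269.86 CPM (monoculture knockout), and 236, 259 and 181 CPM (co-cultured knockout). The highest knockout library was below the lowest control library. The log2 fold change was -0.75 (SE 0.20, edgeR adjusted p = 0.00636) alone, 1.68-fold lower, and -0.70 (SE 0.20, adjusted p = 0.0101) in co-culture, and GC offsets reduced the monoculture value to -0.45. Co-cultured and monoculture knockout did not differ beyond the spread (0.00, 95% interval -0.43 to 0.43, edgeR adjusted p = 0.996), although GC offsets gave a called fall of -0.30 (adjusted p = 0.0417). BANF1 shares 98 exonic bases with EIF1AD on the other strand.

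EMD, emerin (ENSG00000102119; chromosome X, 154379197 to 154381523, plus strand), passed no test. Its libraries held 126, 152 and 171 CPM in the monoculture control, 136, 129 and 158 in the co-cultured control, 96.3, 132 and 135 in the monoculture knockout, with 124, 133 and 89.0 in the co-cultured knockout, with overlap between all groups. The log2 fold change was -0.30 alone (95% interval -0.71 to 0.10, edgeR adjusted p = 0.182) and -0.29 in co-culture (95% interval -0.70 to 0.11, adjusted p = 0.214). As for LMNA, the monoculture value turned with GC offsets, to 0.40 (edgeR adjusted p = 0.000949), and co-cultured against monoculture knockout, at -0.07, became -0.41 (adjusted p = 0.00294).

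Of the HMGB genes, HMGB2 and HMGB1 fell in the knockout and HMGB3 did not pass the test. HMGB2 (ENSG00000164104; chromosome 4, 173331695 to 173335125, minus strand), which is highest in dividing cells, stood at 89.8, 75.0 and 74.7 CPM in the monoculture control and 92.9, 82.8 and 75.6 CPM in the co-cultured control. The monoculture knockout held 51.2, 44.2 and 41.6 CPM and the co-cultured knockout 37.9, 26.4 and 43.1 CPM. Every knockout library was below every control library, and the knockout groups overlapped each other. HMGB2 was 1.75-fold lower alone (log2 change -0.80, SE 0.18, edgeR adjusted p = 0.00179) and 2.34-fold lower in co-culture (-1.23, SE 0.18, adjusted p = 8.45e-05). Co-cultured against monoculture knockout gave -0.35 (95% interval -0.73 to 0.03, edgeR adjusted p = 0.194), which became a call without replicate 3 of the co-cultured knockout (-0.51, adjusted p = 0.0408).

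HMGB1 (ENSG00000189403; chromosome 13, 30456704 to 30617597, minus strand), an abundant DNA-bending protein that acts as an alarm signal outside the cell, held 133, 118 and 101 CPM in the monoculture control and 134, 142 and 124 CPM in the co-cultured control. It held 90.8, 75.1 and 66.1 CPM in the monoculture knockout and 65.4, 47.8 and 90.1 CPM in the co-cultured knockout, again with no overlap of knockout and control. The fall was 1.52-fold alone (log2 change -0.60, SE 0.21, edgeR adjusted p = 0.0244) and 1.97-fold in co-culture (-0.98, SE 0.21, adjusted p = 0.00161). The monoculture call was lost with library size scaling only (edgeR adjusted p = 0.184), without replicate 1 or 2 of the monoculture control (0.0707, 0.0557) and without replicate 2 or 3 of the monoculture knockout (0.0672, 0.0815). GC offsets enlarged it, to -1.25. Between monoculture and co-cultured knockout HMGB1 differed by -0.19 (95% interval -0.64 to 0.25, edgeR adjusted p = 0.552), and GC offsets turned this to a called rise of 0.31 (adjusted p = 0.032). HMGB1 has many processed copies: 48 of its pseudogenes are annotated, 22 held counts, and together these held 12.4% to 15.3% as many counts as HMGB1 in a library, so its level is uncertain where reads could be split between the copies.

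HMGB3 (ENSG00000029993; chromosome X, 150980509 to 150990775, plus strand), a family member known for its part in blood stem cells, showed no call. Its libraries held 85.1, 66.8 and 57.4 CPM in the monoculture control, 85.4, 69.6 and 72.8 in the co-cultured control, 99.5, 81.9 and 67.9 in the monoculture knockout, with 60.8, 50.5 and 77.9 in the co-cultured knockout, so that all groups overlapped. The log2 fold change was 0.25 alone (95% interval -0.18 to 0.68, edgeR adjusted p = 0.291), with the opposite sign under GC offsets (-0.23), and -0.27 in co-culture (95% interval -0.70 to 0.16, adjusted p = 0.283). There GC offsets called it lower (-0.40, edgeR adjusted p = 0.00302, or -0.39 and 0.00349 with the replicate block added). Co-cultured against monoculture knockout was -0.40 (edgeR adjusted p = 0.194), a call without replicate 3 of the co-cultured knockout (-0.58, adjusted p = 0.0354).

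The log2 ratio of HMGB2 to HMGB1 counts within a library, with no GC correction, averaged -0.55 ± 0.11 in the monoculture control, -0.67 ± 0.13 in the co-cultured control, -0.75 ± 0.08 in the monoculture knockout and -0.90 ± 0.15 in the co-cultured knockout (SD, n = 3 each). Over both cultures the difference was -0.22 (exact permutation test within culture, two-sided, p = 0.005, the smallest possible). It was -0.20 alone and -0.23 in co-culture (exact p = 0.1 each, the smallest possible). The transcripts differ in GC content (49.8% for HMGB2, 37.9% for HMGB1), and the direction in monoculture turned with the correction for it. With GC offsets HMGB2 fell less than HMGB1 alone (-0.93 against -1.25) and by more in co-culture (-1.42 against -1.06).

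**Figure D3:**
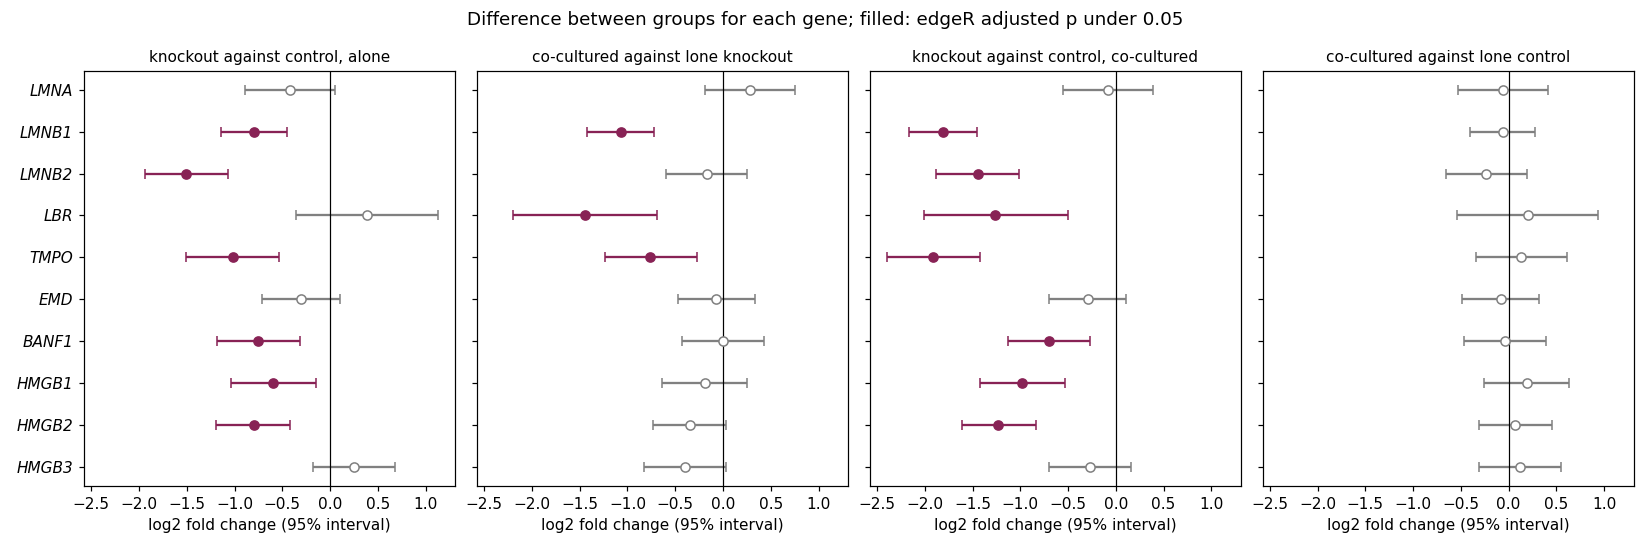
Log2 fold change of the 10 genes (points) with its 95% interval (bars) in the 4 comparisons of pairs of groups, filled where the edgeR adjusted p was under 0.05. LMNB1 and TMPO are filled on the lower side in the first 3 panels, LBR in the second and the third, and nothing is filled between the control groups.

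Counted together, 6 of 10 genes were lower in the monoculture knockout (LMNB1, LMNB2, TMPO, BANF1, HMGB1, HMGB2) and 0 higher, where 56.6% of all genes tested were called (28.0% higher, 28.6% lower). In co-culture 7 of 10 were lower in knockout than in control, the same 6 and LBR, against 49.4% of all genes (24.1% higher, 25.3% lower). From monoculture to co-cultured knockout 3 of 10 were lower (LMNB1, LBR, TMPO), against 11.4% of all genes (5.97% higher, 5.40% lower). Between co-cultured and monoculture control 0 of 10 were called by edgeR, 0 had an unadjusted p under 0.05 and DESeq2 called 0; of all genes 0% were called, with 540 at an unadjusted p under 0.05. In the interaction 1 of 10 was called (LMNB1), against 1.80% of all genes (1.51% higher, 0.286% lower). The median log2 fold change of the 10 was -0.67 alone, -1.1 in co-culture and -0.27 from monoculture to co-cultured knockout, beside 0.09, -0.02 and 0.01 over all genes tested. The monoculture knockout libraries enter both the first and the third of these comparisons, and the co-cultured knockout both the second and the third. How many of all genes keep every knockout library apart from every control library was not counted. The lack of overlap given for single genes can therefore not be read as particular to them.

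Per exon length, the order of the genes changed between control and co-cultured knockout. That length joins the exons of all annotated transcripts of a gene, so the order of genes within a group depends on the annotation. In the monoculture control BANF1 (229 ± 48.9 RPKM, reads per kilobase of exon, scaled like CPM), LMNB2 (209 ± 45.7) and LMNA (182 ± 43.2) led and did not differ beyond their SDs, followed by EMD at 74.0 ± 11.2. LMNB1 (34.8 ± 4.74) and HMGB2 (28.8 ± 3.11), whose SDs overlapped, came next, then TMPO (18.2 ± 3.05), HMGB3 (17.6 ± 3.55) and HMGB1 (15.2 ± 2.03), which overlapped, and LBR at 5.75 ± 1.30 RPKM (SD, n = 3 each). In the co-cultured knockout LMNA (165 ± 37.0) and BANF1 (137 ± 24.5) led, and LMNB2 (65.2 ± 13.7) had come level with EMD (57.1 ± 11.5). HMGB3 (15.9 ± 3.48), HMGB2 (12.9 ± 3.07), LMNB1 (9.54 ± 1.99) and HMGB1 (8.77 ± 2.75) followed, then TMPO (5.30 ± 1.97) and LBR (2.76 ± 1.69 RPKM), with SDs that overlapped from each to the next. LMNB1 thus went from above HMGB3 to below it.

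Across the 12 libraries, log2 levels of TMPO and HMGB2 (Pearson r = 0.985), LMNB1 and TMPO (0.973), HMGB1 and HMGB2 (0.966) and LMNB2 and BANF1 (0.942) were among the closest of the 45 pairs. LMNA had r = 0.86 with EMD, 0.091 with LMNB1 and -0.816 with HMGB3. These values describe 12 points that share 4 group means and the GC trend. Among 6506 genes with a mean of at least 20 CPM, those most like LMNB1 were SMARCC1 (Pearson r 0.989), DSP (0.985), HNRNPU (0.985), SNHG3 (0.982) and TPX2 (0.981). Those most like HMGB2 were ITPRID2 (0.99), KITLG (0.99), FKBP5 (0.986), MCMBP (0.986) and PPP3CA (0.985).

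Other genes of the nuclear envelope were called in both directions. Counts in each list are to be read beside the shares of all genes called, 28.0% higher and 28.6% lower in monoculture knockout against control, and 5.97% higher and 5.40% lower in co-cultured against monoculture knockout. Medians of each list are log2 fold changes, to be read beside 0.09 over all genes in monoculture knockout against control and 0.01 in co-cultured against monoculture knockout, and levels are means ± SD over 3 libraries. Of 6 genes that process lamins, 1 was higher and 3 lower in the monoculture knockout (median -0.41, or -0.05 with GC offsets). RCE1, which cleaves farnesylated proteins, went from 63.9 ± 13.1 to 33.9 ± 5.43 CPM, and FNTA, a subunit of farnesyltransferase, from 14.9 ± 4.49 to 27.1 ± 3.30 CPM; GC offsets ended both calls (log2 changes of 0.03 and 0.25). Of 21 genes of the inner membrane and of the LINC complex, which joins the nucleus to the cytoskeleton, 7 were higher and 7 lower (median -0.14), where 28.0% of all genes were higher and 28.6% lower. SYNE4, which encodes nesprin-4, fell from 37.1 ± 9.21 to 0.502 ± 0.165 CPM (log2 change -6.23, edgeR adjusted p = 4.07e-09). SYNE1, for nesprin-1, rose from 3.38 ± 1.45 to 47.7 ± 10.3 CPM. In co-cultured knockout SYNE1 came down to 12.7 ± 7.37 CPM (log2 change -1.91, edgeR adjusted p = 0.0108). That call was lost without replicate 1 of that group (0.069) and when only the compared groups were fitted (0.0508). There 3 of the 21 rose and 1 fell against monoculture, beside 5.97% and 5.40% of all genes (median 0.25, or -0.02 with GC offsets), TOR1B, a torsin, among the higher (42.5 ± 2.12 to 58.1 ± 2.96 CPM). The TOR1B call was lost without any 1 library of the 2 groups except replicate 3 of the co-cultured knockout (edgeR adjusted p up to 0.118). It was also lost with the replicate block (0.0627) and when only the compared groups were fitted (0.083). Of the lamin-processing genes ICMT alone was called there, from 133.8 ± 2.79 to 198.5 ± 11 CPM (list median 0.15), and not without replicate 2 of the monoculture or replicate 1 of the co-cultured knockout (edgeR adjusted p = 0.0525 and 0.0581).

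Of 14 heterochromatin tethers and BAF kinases, 9 were lower and 1 higher in the monoculture knockout (median -0.56, or -0.36 with GC offsets), beside 28.6% of all genes lower and 28.0% higher. EHMT2, a histone H3 lysine methyltransferase, fell from 277 ± 58.1 to 73.0 ± 9.32 CPM (log2 change -1.93, or -1.14 with GC offsets). Going to co-cultured knockout, 1 of the 14 rose and 1 fell (median -0.03). The latter was CBX5 (HP1 alpha, a partner of LBR), from 153 ± 29.8 to 50.2 ± 33.3 CPM (log2 change -1.61, edgeR adjusted p = 0.0227). Like that of LBR, this call was lost without replicate 1 or 2 of the monoculture knockout (0.0877, 0.0649) or of the co-cultured knockout (0.119, 0.0636). It was also lost with library size scaling only (edgeR adjusted p = 0.0617) and when only the compared groups were fitted (0.0925).

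Nuclear pore genes were split in the monoculture knockout, with 5 higher and 6 lower of 30 (median 0.04, or -0.25 with GC offsets), beside 28.0% and 28.6% of all genes. From monoculture to co-cultured knockout 12 of the 30 were lower and 0 higher (median -0.58), beside 5.40% and 5.97% of all genes. With library size scaling only 4 were lower, where 431 of all 16768 genes tested were. With GC offsets 19 were lower and 1 higher, where 2999 of all genes were lower and 1810 higher. In co-culture 17 were lower and 1 higher in knockout than in control (median -0.80), beside 25.3% and 24.1% of all genes. NUP35 rose in the monoculture knockout (3.69 ± 0.483 to 8.30 ± 3.28 CPM), a call lost with GC offsets (log2 change 0.49 against 1.18) and without any 1 library of the 2 groups except replicate 3 of the knockout (edgeR adjusted p up to 0.106). AAAS fell (153 ± 30.7 to 69.6 ± 8.31 CPM). TPR, of the nuclear basket, fell from 28.4 ± 1.63 to 8.37 ± 4.35 CPM from monoculture to co-cultured knockout, and RANBP2, of the cytoplasmic filaments, from 28.6 ± 4.25 to 8.50 ± 5.69 CPM. Without replicate 1 of the co-cultured knockout neither was called (edgeR adjusted p = 0.0569 and 0.0895), nor was RANBP2 without replicate 1 of the monoculture knockout (0.0641). With only the compared groups fitted, TPR (edgeR adjusted p = 0.0512) and RANBP2 (0.0809) were not called either.

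Of 17 genes of envelope breakdown and resealing, 5 were higher and 3 lower in the monoculture knockout (median 0.01), beside 28.0% and 28.6% of all genes. With GC offsets 6 were called each way (median -0.07), where 5199 of all 16768 genes tested were higher and 5188 lower. LPIN1, which encodes a lipin, rose from 8.23 ± 1.41 to 41.5 ± 3.77 CPM, and SPAST, which encodes spastin, from 5.14 ± 3.02 to 15.7 ± 1.87 CPM. In co-culture 1 of the 17 was higher and 5 were lower than in the monoculture knockout (median -0.51), beside 5.97% and 5.40% of all genes. With library size scaling only 3 were higher and 4 lower, where 989 of all genes were higher and 431 lower. GC offsets gave a median of -0.24 with 2 higher and 8 lower, where 1810 of all genes were higher and 2999 lower. PRKCA, a lamin kinase, fell there from 107 ± 9.25 to 45.5 ± 13.7 CPM, and the mitotic cyclin CCNB2 from 50.6 ± 3.02 to 24.4 ± 3.38 CPM.

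Of 15 other HMG-box and HMG genes, with SUPT16H listed among them, 8 were lower and 1 higher in the monoculture knockout (median -0.57), beside 28.6% and 28.0% of all genes. HMGA1 fell from 2601 ± 611 to 868 ± 158 CPM and HMG20B from 400.2 ± 122 to 84.6 ± 13.5 CPM, with log2 changes of -1.58 and -2.24 that GC offsets reduced to -0.77 and -1.11. SUPT16H, a subunit of the histone chaperone FACT, has no HMG box itself. It was the 1 gene of the list called from monoculture to co-cultured knockout (list median -0.13), at 85.0 ± 19.2 against 38.0 ± 22.7 CPM (edgeR adjusted p = 0.0498). That call held under 7 of 20 alternatives. Among 5 receptors and redox partners of HMGB1 that could be tested of 8, 2 rose in the monoculture knockout, where 28.0% of all genes did (median 0.76, or 0.13 with GC offsets): TXN, thioredoxin, from 195 ± 40.1 to 638.5 ± 86.3 CPM, and the chemokine receptor CXCR4 from 0.871 ± 0.0521 to 5.84 ± 0.830 CPM. CXCR4 stood at 9.56 ± 0.901 CPM in the co-cultured knockout (edgeR adjusted p = 0.0489), a call held under 5 of 20 alternatives (list median -0.02).

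Of 15 senescence markers outside the lamina and HMGB genes, 8 were higher and 3 lower in the monoculture knockout, where 28.0% of all genes were higher and 28.6% lower. CDKN2A and CDKN2B were among the 3 lower, and both belong to the locus by which the control libraries went against the label. GDF15 was the other. It was called higher in co-cultured than in monoculture knockout, and in co-culture higher in knockout than in control. CDKN1A, the p21 inhibitor of cyclin-dependent kinases, rose from 214 ± 41.4 to 1131 ± 164 CPM and to 2519 ± 537 CPM in co-culture. CDKN2A, for p16 and ARF, had 99.3 ± 22.9 CPM in the monoculture control and 0 counts in all 3 monoculture knockout libraries, at least 649-fold lower against a floor of 3 counts in each library. Co-cultured knockout cells had 6 of 15 higher and 0 lower than monoculture knockout cells, beside 5.97% and 5.40% of all genes, among them CXCL8 (52.3 ± 0.890 to 817.6 ± 113 CPM) and IL1B (1.10 ± 0.315 to 14.0 ± 0.530 CPM), which encode secreted inflammatory factors. The median log2 fold change of this list was 1.34 alone and 1.16 from monoculture to co-cultured knockout; with genes at 3 counts or fewer in a group set to their bound, and to 0 where both groups were there, it was 1.18 and 0.56. GC offsets gave 0.80 and 0.82 in place of 1.34 and 1.16.

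Proliferation markers stood beside these values as follows. In the monoculture knockout 7 of 16 were lower and 1 higher, beside 28.6% and 28.0% of all genes (median log2 fold change 0.00, or -0.44 with GC offsets), with MCM2, of the replicative helicase, at 444 ± 107 against 118 ± 21.8 CPM and E2F2 at 55.5 ± 6.33 against 13.4 ± 1.89 CPM. MKI67 was not called there, at 134 ± 30.2 in the monoculture control and 150.1 ± 11 CPM in the monoculture knockout (edgeR adjusted p = 0.55). Against monoculture, the co-cultured knockout had 8 of 16 lower and 0 higher, beside 5.40% and 5.97% of all genes (median -0.51): MKI67 fell to 43.8 ± 13.7 CPM (edgeR adjusted p = 0.000484), CENPF from 26.8 ± 1.52 to 4.69 ± 2.80 CPM and TOP2A from 98.9 ± 15.6 to 26.3 ± 19.0 CPM. TOP2A was not called without replicate 1 or 2 of the monoculture knockout (edgeR adjusted p = 0.0623, 0.0513) or replicate 1 of the co-cultured knockout (0.0934). Nor was it called when only the compared groups were fitted (edgeR adjusted p = 0.0745). The part of cell division in the levels of LMNB1, TMPO and HMGB2 was not tested.

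The replicates of a group differed along the GC content of transcripts, which bears on every value above. Across 10303 genes, the Spearman correlation of a library's deviation from its group mean with GC content was lowest in co-cultured knockout replicate 3 (-0.84) and highest in replicate 2 of that group (0.828). Log2 fold changes correlated with GC at -0.487 in knockout against control alone, 0.474 in co-cultured against monoculture knockout, -0.153 in knockout against control in co-culture, -0.57 between the control groups and 0.637 in the interaction. These are correlations across genes, which are not replicates. With GC offsets LMNB1 (51.1% GC), HMGB2 (49.8%), LMNB2 (61.4%) and TMPO (41.4%) kept their direction in the comparisons of knockout with control and of co-cultured with monoculture knockout. LMNA (61.5%), EMD (60.0%), BANF1 (55.2%), HMGB3 (44.0%), HMGB1 (37.9%) and LBR (37.8%) turned sign in knockout against control alone or in co-cultured against monoculture knockout. In knockout against control alone, GC offsets raised the genes of highest GC content and lowered the rest. LMNA went from -0.42 to 0.41, LMNB2 from -1.51 to -0.68, EMD from -0.30 to 0.40 and BANF1 from -0.75 to -0.45. HMGB1 went from -0.60 to -1.25, TMPO from -1.02 to -1.61, LBR from 0.39 to -0.24 and HMGB3 from 0.25 to -0.23. LMNB1 and HMGB2 moved least, from -0.80 to -0.84 and from -0.80 to -0.93. A turn of sign depended on the starting value as well as on the shift.

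**Figure D4:**
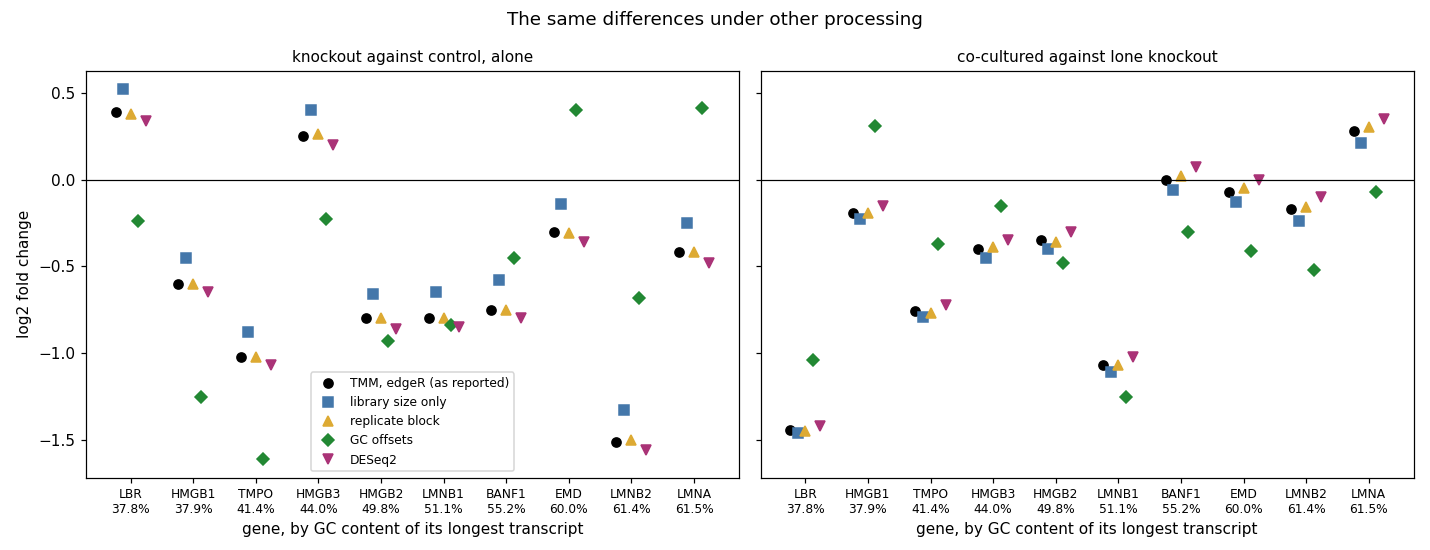
Log2 fold change of the 10 genes, ordered by the GC content of their longest transcript (horizontal axis), in 2 comparisons and under 5 ways of processing (symbols). LMNB1 and HMGB2 stay below 0 throughout, while the GC offset values of LMNA and EMD in the monoculture knockout, 0.41 and 0.40, and of HMGB1 in co-culture, 0.31, lie on the other side of 0 from the rest.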

How the data were processed

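The authors deposited raw counts, whole numbers per Ensembl gene, in 1 table for the 12 libraries. Per the submitters' processing notes, FastQC, STAR 2.7.9a, featureCounts, R 4.2.1 and DESeq2 1.36.0 were used with GRCh38/hg38; the annotation release and strand setting are not given in the sources used here. Per the labels' protocols, total RNA was isolated with miRNeasy and made into NEBNext Ultra RNA libraries.

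Samples were grouped by their own labels, and 0 columns were left unmapped. The analysis used edgeR 4.0.16 under R 4.3.3: filterByExpr, TMM scaling, 1 model of 4 group means over all libraries, and the robust quasi-likelihood F-test. P-values were adjusted by Benjamini-Hochberg over all 16768 genes in each of 5 comparisons, and genes were called under 0.05. The biological coefficient of variation was 22.1%, and 1 CPM was 14.9 counts in the shallowest library. Intervals are 95%, from the model's t distribution. RPKM used exon lengths of GENCODE 29, in which 58366 identifiers were found; positions are from it, and overlaps are of exons. GC offsets were smooth curves (5 degrees of freedom) on transcript GC content, fitted per library to log2 CPM relative to each gene's mean over all libraries. They therefore also remove differences between groups that follow GC content. The 2 ratios had 0.5 added to each count. Replicates differed by 8.84 to 134 per gene in a chi-square comparison, more than counting error alone would give. The comparison cannot tell separate cultures from separate preparations of the same RNA. The test was checked on simulated counts.

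The genes, lists and tests were chosen with earlier results of these data known. Named list genes were, for knockout against control alone and co-cultured against monoculture knockout, the 2 called members with the largest absolute log2 fold change and at least 5 CPM in a group. CDKN1A, CDKN2B, GDF15, MKI67, EPCAM and the overlapping genes were named after their values were seen. Some genes that the rule selects are left unnamed and are not reported here. Alternatives were library size only, RLE scaling, no filter, DESeq2 1.42.0, the replicate number as a block, GC offsets, both of these, a required fold of 1.5, only the compared groups, and each library left out.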

Additional observations from a re-analysis of the deposited data

Results flagged for a closer look

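The difference between co-cultured and monoculture cells in LMNB1 was larger in knockout than in control cells by the interaction term, at -1.01 on the log2 scale (knockout minus control, edgeR adjusted p = 0.0406). The call was lost with library size scaling only (adjusted p = 0.115), with the replicate block (0.0829) and in 10 of the 12 fits that left out 1 library (0.054 to 0.123). In the knockout LMNB1 went from 72.7 ± 2.68 to 34.7 ± 7.23 CPM, against 126 ± 17.2 and 121 ± 7.37 CPM in monoculture and co-cultured control (SD, n = 3 each). The partner of the co-cultured control is not given in the labels.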

How the results depend on the processing

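The falls of LMNB1, LMNB2, TMPO, BANF1 and HMGB2 in knockout against control, and of LMNB1 from monoculture to co-cultured knockout, kept their direction and their call under the alternatives tested against no change. Depth was no limit: the lowest count of a member in a library was 258, for LBR. The cause of the changes below was not tested.

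Genes called in monoculture knockout against control numbered 9485, and 5971 with a required fold of 1.5, which also left 2 of the 6 members; in co-culture 8276 became 4954. Between the controls 0 became 2 with no filter. From monoculture to co-cultured knockout 1907 genes became 3340 with no filter, 3238 with DESeq2, 1080 with the replicate block, 4809 with GC offsets, 4089 with the replicate block and GC offsets, 293 with a required fold and 664 with only the compared groups. The 3 members called there became 1 with library size only and with the compared groups, 0 with a required fold, and 7 (1 higher, 6 lower) with GC offsets, with or without the block. Calls higher made up 52.5% of that comparison, but 69.6% with library size only, 71.5% with the compared groups, 80.9% with a required fold and 37.6% with GC offsets. In the interaction 301 genes (84.1% higher) became 1342 (54.7%) with no filter, 890 (62.6%) with DESeq2, 179 with the replicate block, 1291 (45.5%) with GC offsets, 748 (50.8%) with both and 92 with a required fold. Its 1 member became 0 with library size only, the replicate block or a required fold, 2 with no filter or DESeq2, 4 with GC offsets and 3 with both.

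Same-numbered libraries of different groups deviated together (r above 0.1) in 8 of 18 pairs (r from -0.853 to 0.767). Among both control groups and the monoculture knockout, replicates 1 (r 0.392 to 0.767) and replicates 3 (0.608 to 0.726) deviated together. Against the co-cultured knockout these replicates ran the other way (-0.531 to -0.419 and -0.853 to -0.769). The correlation with GC content rose from replicate 1 to 3 in those other groups, but was lowest in replicate 3 of the co-cultured knockout. With the replicate block no member changed sign, and the calls of TMPO from monoculture to co-cultured knockout (adjusted p = 0.0643) and of LMNB1 in the interaction (0.0829) were lost.

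Signs turned mainly with GC offsets, and alike with the block added. In monoculture knockout against control the log2 fold change became 0.41 for LMNA, 0.40 for EMD, -0.24 for LBR and -0.23 for HMGB3. From monoculture to co-cultured knockout it became -0.07 for LMNA, 0.31 for HMGB1 and -0.30 for BANF1 (-0.29 with the block). In co-culture LMNA became 0.19 in knockout against control. Between the controls LMNA became 0.14, EMD 0.06, BANF1 0.01 (0.02 with the block) and HMGB2 0.00 (without the block). In the interaction LMNA became -0.21, LMNB2 and EMD -0.48, BANF1 -0.31 and HMGB1 0.19. With library size only, BANF1 turned to -0.06 from monoculture to co-cultured knockout, LMNA to 0.02 and BANF1 to 0.05 between the controls, and LMNB2, EMD and BANF1 to -0.09, -0.12 and -0.10 in the interaction. EMD turned to 0.00 with RLE scaling and with DESeq2 and to 0.06 with no filter from monoculture to co-cultured knockout, where BANF1 was -0.01 with the compared groups, and LMNA was 0.02 in co-cultured knockout against control with no filter.

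Leaving out each library in turn also turned signs, over these ranges: EMD from -0.21 to 0.09, BANF1 from -0.14 to 0.14 and HMGB1 from -0.45 to 0.00 from monoculture to co-cultured knockout; LMNA from -0.24 to 0.09 in co-cultured knockout against control; between the controls LMNB1 from -0.17 to 0.01, LMNA from -0.24 to 0.09, EMD from -0.19 to 0.02, BANF1 from -0.20 to 0.10, HMGB3 from 0.00 to 0.29 and HMGB2 from -0.01 to 0.16; in the interaction LMNB2 from -0.11 to 0.23, EMD from -0.13 to 0.17 and BANF1 from -0.11 to 0.20. With each library left out in turn, genes called ranged from 7959 to 10525 in monoculture knockout against control, from 7145 to 8892 in co-culture, from 0 to 0 between the controls, from 536 (without replicate 1 of the co-cultured knockout) to 5680 (without its replicate 3) from monoculture to co-cultured knockout, and from 119 to 3623 in the interaction. Members called ranged from 5 to 6, 7 to 7, 0 to 0, 1 to 5 and 0 to 3 in the same order. The LMNA to LMNB1 difference ranged from 0.90 to 1.22 (exact p 0.01 to 0.04) and that of HMGB2 to HMGB1 from -0.24 to -0.17 (exact p 0.005 to 0.015). With monoculture or co-cultured libraries only, these were 0.38 and 1.72, and -0.20 and -0.23, whose exact p could not go below 0.1.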
